A study of Mus musculus with 7 samples.

Results

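The interleukin 1 family transcripts described here are those of 8 genes, chosen by symbol with earlier results of these data known. They are the cytokine genes Il1a, Il1b, Il33 and Il18, the antagonist gene Il1rn, and the receptor genes Il1r1, Il1r2 and Il1rl1. All 8 were found among the 18036 genes listed in the 7 RNA sequencing libraries. The libraries came from epithelium scraped off the colon of female C57BL/6 hCYP1A mice, which carry human CYP1A genes in place of the mouse ones in every group, and which were 6 weeks old when the groups were formed. The control mice were untreated, and the labels give no day for them. Groups and days follow the labels throughout, although the deposited tables carry codes in their names that read like days and differ from the labelled ones. The DSS libraries came from mice that drank 1.5% DSS (dextran sulfate sodium, which damages the colon lining and causes colitis) for 5 days, and that were killed 1, 3 or 7 days after it. The PhIP/DSS mice received, before the same DSS course, 2 doses of PhIP at 100 mg/kg, given 4 days apart and followed by DSS a week later. PhIP is a carcinogen formed when meat is cooked. Each library was 1 pool of RNA from 3 mice, so no condition had a replicate. Pathology is labelled normal in the control, colitis on days 1 and 3, and partial colitis on day 7. Mice given PhIP without DSS were not analysed here.

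The interleukin 1 family are cytokines of injury and infection. IL-1α and IL-1β, from Il1a and Il1b, act through the receptor IL-1R1, from Il1r1, with the accessory chain from Il1rap, and switch on NF-κB through MyD88 and the IRAK kinases. Il1rn encodes the receptor antagonist, which occupies IL-1R1 without signalling, and Il1r2 encodes a decoy receptor that binds IL-1 but cannot signal. IL-33, from Il33, is kept in the nucleus and released from damaged barrier and stromal cells. Its receptor ST2, from Il1rl1, is made both as a membrane receptor and as a soluble form that captures IL-33. IL-18, from Il18, is made constitutively by gut epithelium and, like IL-1β, is matured by caspase-1.

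Il1a and Il1b lie side by side on mouse chromosome 2, at 129299609 to 129310186 and 129364569 to 129371164 in GRCm38.p6, with 54.4 kb between them. Il1rn lies elsewhere on chromosome 2, at 24336860 to 24351491. The 3 receptor genes form a cluster on chromosome 1, with Il1r2 at 40084692 to 40125230, Il1r1 at 40222480 to 40316201 and Il1rl1 at 40404864 to 40465418. Il18 lies on chromosome 9 at 50554700 to 50581841, and Il33 on chromosome 19 at 29925113 to 29960718. The neighbours Il1a and Il1b had the same order of libraries, whereas the 3 neighbouring receptor genes did not.

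Promoter sequences were taken from RefSeq (GRCm38.p6), which held all 8 genes in 13 windows of 250 bases upstream of an annotated start. The sequences of 4 of these windows are shown because they set the neighbouring pair Il1a and Il1b, which had a low level in the control, beside Il33 and beside Il18, which was abundant in every library. Each is written 5′ to 3′ on the strand of the gene and ends at the base before the start. Capitals mark matches to the searched motifs. The window of Il1a is chr2:129309973-129310222, minus strand. The window of Il1b is chr2:129371140-129371389, minus strand. The window of Il33 is chr19:29945540-29945789, plus strand, at the second of its 2 annotated starts. The window of Il18 is chr9:50554450-50554699, plus strand.
Il1a: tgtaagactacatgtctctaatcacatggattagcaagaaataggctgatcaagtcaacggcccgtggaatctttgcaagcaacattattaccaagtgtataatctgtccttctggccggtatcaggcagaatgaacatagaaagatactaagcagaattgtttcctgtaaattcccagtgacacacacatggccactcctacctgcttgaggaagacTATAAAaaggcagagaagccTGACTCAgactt
Il1b: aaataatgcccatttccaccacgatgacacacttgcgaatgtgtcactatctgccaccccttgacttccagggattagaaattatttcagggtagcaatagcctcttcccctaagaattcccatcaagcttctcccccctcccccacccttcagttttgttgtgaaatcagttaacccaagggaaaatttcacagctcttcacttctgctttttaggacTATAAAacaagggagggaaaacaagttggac
Il33: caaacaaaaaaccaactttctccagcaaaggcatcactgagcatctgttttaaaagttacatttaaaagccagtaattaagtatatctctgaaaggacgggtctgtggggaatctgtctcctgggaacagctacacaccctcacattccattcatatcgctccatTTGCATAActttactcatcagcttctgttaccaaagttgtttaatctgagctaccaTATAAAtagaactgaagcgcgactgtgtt
Il18: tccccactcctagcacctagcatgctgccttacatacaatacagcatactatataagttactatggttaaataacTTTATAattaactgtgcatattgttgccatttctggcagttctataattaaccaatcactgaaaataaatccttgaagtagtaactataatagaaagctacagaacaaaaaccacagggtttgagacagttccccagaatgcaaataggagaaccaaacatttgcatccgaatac

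The motifs searched on both strands were the TATA box TATAAA, AP-1 as TGANTCA, C/EBP as TTGCNNAA and, by name, the interferon-stimulated response element and NF-κB. TATAAA began 32 bases before the start of Il1a, 31 before that of Il1b and 29 before the second start of Il33. It also began 203 bases before the first start of Il33. In Il18 its letters occurred on the reverse strand, beginning 175 bases before the start. Over the 32841 promoter windows of the same length, 12.4% held TATAAA. AP-1 matched at 12 bases before the Il1a start and 141 before the first start of Il1rn, against 6.75% of all windows. C/EBP matched at 85 bases before the second Il33 start, at 133 before the first Il1r1 start and at 34 before the first Il1rl1 start, against 9.57% of all windows. NF-κB matched only in the second window of Il1r1, against 7.25% of all windows, and the interferon-stimulated element matched in none, against 2.98%. The window of Il1r2 held no match. These matches describe letters in these windows and were not tested as binding sites.

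The libraries held between 7.66 M and 8.78 M uniquely mapped reads. Levels are given in RPKM, reads divided by gene length in kilobases and by the library total in M (mega, as in Mb) reads, which can be compared between genes, and intervals are exact 95% intervals that cover counting error only. Genes that reached 1 RPKM in 2 or more libraries were tested, 12061 of the 18036, and all 8 genes passed that filter. Il1a, Il1r2, Il33 and Il1rl1 were under 1 RPKM in the control and passed only through treated libraries. The epithelial markers summed to between 12398 and 15339 RPKM per library, with Epcam, an epithelial adhesion protein gene, between 718 and 1018, so the labelled tissue was present in every library. Because these are bulk samples, fewer cells of a type and less RNA per cell cannot be told apart.

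**Figure D1:**
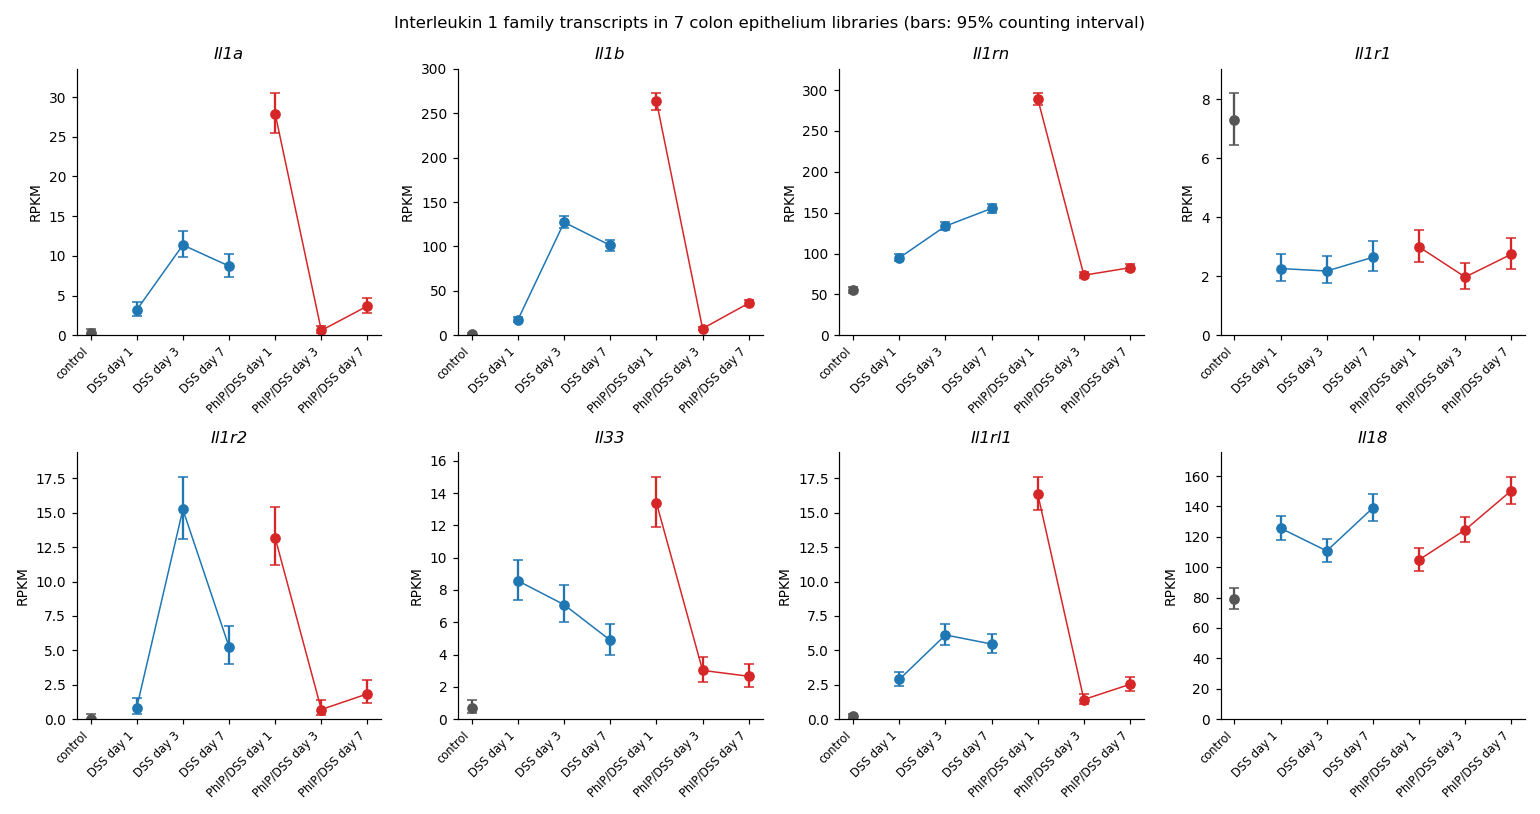
Level of each gene in RPKM (vertical axis, from 0) in the 7 libraries, with the control in grey, DSS in blue and PhIP/DSS in red. Each point is 1 library of 3 pooled mice, bars are 95% counting intervals and lines join the days of an arm. Il1a, Il1b, Il1rn, Il33 and Il1rl1 have their highest point in PhIP/DSS day 1, Il1r2 in DSS day 3, Il1r1 in the control and Il18 in PhIP/DSS day 7.

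The IL-1 cytokine genes were at low levels in the control and higher in the treated libraries. Il1b stood at 1.28 RPKM in the control, from 13 reads. It was at 17.7, 127 and 101 RPKM in DSS on days 1, 3 and 7, and at 263, 7.51 and 36.1 RPKM in PhIP/DSS. All 6 treated libraries lay above the control, and the DSS arm was highest on day 3 whereas the PhIP/DSS arm was highest on day 1. The ratio to the control ran from 5.88 (3.26 to 11.5) in PhIP/DSS day 3 to 206 (120 to 388) in PhIP/DSS day 1. In the order of levels, no 2 neighbouring libraries had counting intervals that allowed equal levels.

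Il1a followed the same order of libraries at a lower level. It stood at 0.330 RPKM in the control, from 5 reads. It was at 3.19, 11.4 and 8.71 RPKM in DSS on days 1, 3 and 7, and at 27.9, 0.601 and 3.68 RPKM in PhIP/DSS. PhIP/DSS day 3, with 10 reads, could not be told from the control within counting error (ratio 1.82, interval 0.567 to 6.78), nor PhIP/DSS day 7 from DSS day 1 (ratio 1.15, interval 0.787 to 1.69). Within a library the Il1a level was between 0.0801 and 0.259 of the Il1b level, so Il1b was the more abundant of the pair everywhere.

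Il1rn, the antagonist gene, was already abundant in the control. It stood at 55.1 RPKM there, at 94.7, 134 and 155 RPKM in DSS on days 1, 3 and 7, and at 289, 73.4 and 82.6 RPKM in PhIP/DSS. The DSS arm was highest on day 7, later than for Il1a and Il1b, and the PhIP/DSS arm again on day 1. The ratio to the control ran from 1.33 (1.23 to 1.44) in PhIP/DSS day 3 to 5.25 (4.92 to 5.61) in PhIP/DSS day 1, a narrower range than that of Il1b. Every step in its order of levels was larger than counting error. RefSeq and GENCODE list several starts for Il1rn, which encode secreted and intracellular forms, and the counts do not separate them.

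The balance of agonist and antagonist transcripts therefore differed between libraries. The ratio of the Il1b level to the Il1rn level was 0.0232 (0.0123 to 0.0398) in the control. It was 0.187, 0.953 and 0.652 in DSS on days 1, 3 and 7, and 0.911, 0.102 and 0.437 in PhIP/DSS. In DSS day 3 the interval, 0.895 to 1.01, included equal levels, and in every other library Il1rn was above Il1b beyond counting error. These ratios rest on the listed Il1rn length of 2480 bases and would be lower with the length of a shorter form.

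**Figure D2:**
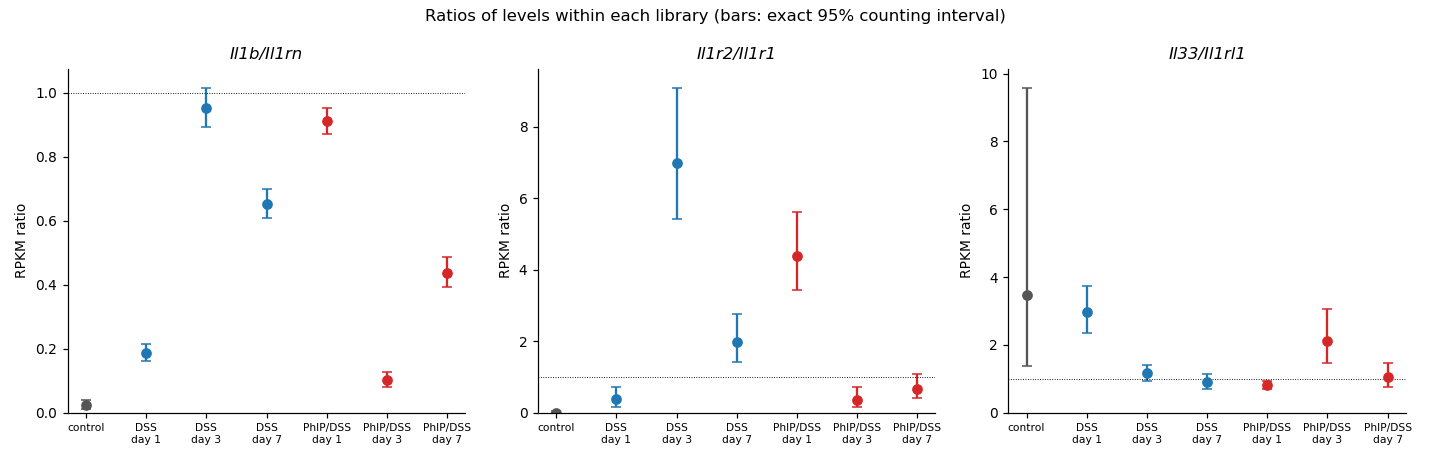
Ratio of the RPKM levels of 2 genes within each library (vertical axes, from 0), for agonist over antagonist, decoy over signalling receptor, and IL-33 over its receptor. Points are libraries coloured by arm, bars are exact 95% counting intervals and the dotted line marks equal levels. Il1r2 exceeds Il1r1 in DSS days 3 and 7 and in PhIP/DSS day 1.

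The receptors for IL-1 lay on opposite sides of the control. Il1r1, the signalling receptor, stood at 7.30 RPKM in the control. It was at 2.26, 2.18 and 2.65 RPKM in DSS on days 1, 3 and 7, and at 3.00, 1.98 and 2.75 RPKM in PhIP/DSS. The control lay above all 6 treated libraries, by between 2.44 (1.96 to 3.04) and 3.70 (2.87 to 4.81) times. No 2 neighbours in the order of the treated libraries differed beyond counting error, although PhIP/DSS day 1, the highest of them, was 1.52 times PhIP/DSS day 3, the lowest (1.14 to 2.04).

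Il1r2, the decoy receptor, had 0 reads in the control, with an upper interval limit of 0.354 RPKM. It was at 0.842, 15.2 and 5.25 RPKM in DSS on days 1, 3 and 7, and at 13.2, 0.698 and 1.84 RPKM in PhIP/DSS. Against a floor of 3 reads in the control library the DSS libraries of days 1, 3 and 7 were 2.93-fold, 52.9-fold and 18.3-fold higher. The PhIP/DSS libraries were 45.8-fold, 2.43-fold and 6.39-fold higher. These values leave out counting error in the treated library. The exact intervals against 0 reads had lower limits of 1.97, 42.6 and 14.4 in DSS and of 36.8, 1.55 and 4.75 in PhIP/DSS. DSS day 3 and PhIP/DSS day 1 were the high libraries and were not told apart by counting error (ratio 1.16, interval 0.927 to 1.44). DSS day 1, with 10 reads, PhIP/DSS day 3, with 8, and PhIP/DSS day 7, with 21, were the low ones, and neighbours among these could not be told apart either.

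The decoy receptor was thus the more abundant IL-1 receptor transcript in 3 libraries. The ratio of the Il1r2 level to the Il1r1 level was 0.372, 6.99 (5.41 to 9.09) and 1.99 (1.42 to 2.76) in DSS on days 1, 3 and 7. It was 4.40 (3.45 to 5.62), 0.354 and 0.669 in PhIP/DSS. In the control, with 0 reads of Il1r2, its exact interval ran up to 0.0488, and the floor of 3 reads gave 0.0394.

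The IL-33 axis was higher in every treated library on both sides. Il33 stood at 0.715 RPKM in the control, from 14 reads. It was at 8.56, 7.09 and 4.88 RPKM in DSS on days 1, 3 and 7, and at 13.4, 3.02 and 2.66 RPKM in PhIP/DSS. Both arms were highest on day 1, and DSS days 1 and 3 did not differ beyond counting error (ratio 1.21, interval 0.974 to 1.50), nor did PhIP/DSS days 3 and 7 (ratio 1.14, interval 0.785 to 1.65). The ratio to the control ran from 3.71 (2.04 to 7.22) to 18.7 (10.98 to 34.7).

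Il1rl1, the IL-33 receptor gene, stood at 0.205 RPKM in the control, from 8 reads. It was at 2.89, 6.12 and 5.46 RPKM in DSS on days 1, 3 and 7, and at 16.4, 1.43 and 2.53 RPKM in PhIP/DSS. PhIP/DSS day 1 stood apart as the highest library, 79.7 times the control (40.2 to 185). DSS days 3 and 7 did not differ beyond counting error (ratio 1.12, interval 0.937 to 1.34), nor did DSS day 1 and PhIP/DSS day 7 (ratio 1.14, interval 0.876 to 1.49). The Il33 level was 3.48 (1.36 to 9.57) times the Il1rl1 level in the control and 0.818 (0.711 to 0.938) times in PhIP/DSS day 1, the lowest value of the 7 libraries. Both ratios rest on the listed length of Il1rl1 and would be lower with the length of a shorter form.

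Reads of Il1rl1 covered an unusually small part of its listed length of 5080 bases. The share of bases covered was 4.86% in the control, 27.4%, 37.5% and 32.3% in DSS on days 1, 3 and 7, and 58.8%, 21.1% and 28.6% in PhIP/DSS. Il1r1, with a listed length of 4808 bases, was 51.9% covered by 95 reads in DSS day 1, where 128 reads of Il1rl1 covered 27.4%. In PhIP/DSS day 1, 264 genes were within 10% of the Il1rl1 length and had at least as many reads, with a median coverage of 96.0%, and 3 of them were covered less than Il1rl1. In DSS day 3 this held for 2 of 579 genes and in the control for 9 of 1086. In GENCODE M21 the transcripts of Il1rl1 that encode the membrane form of 567 residues are 5053 and 5302 bases long. Those that encode the form of 337 residues are 2661 and 1216 bases long. The tables give 1 value per gene, so the forms were not analysed here, and the RPKM of Il1rl1 rests on the listed length of 5080 bases.

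**Figure D3:**
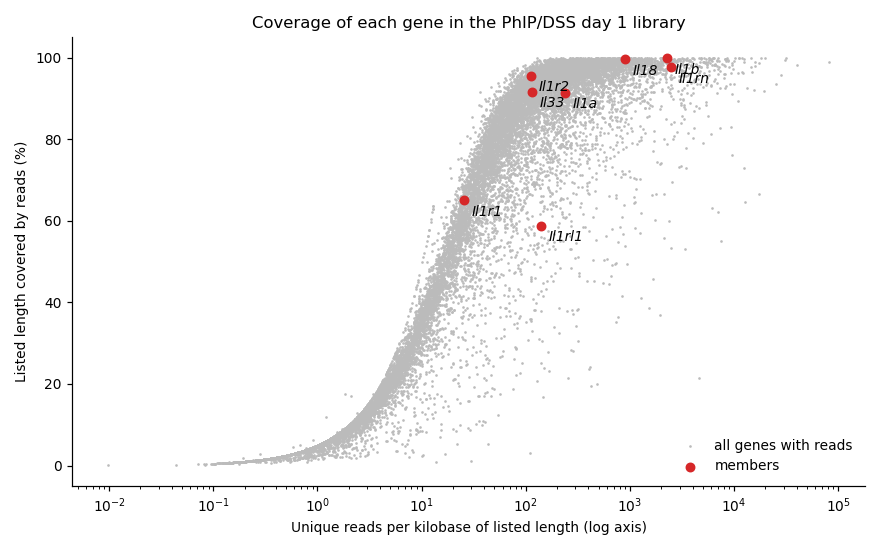
Share of the listed length covered by reads (vertical axis, percent) against unique reads per kilobase (horizontal log axis) for all genes with reads in PhIP/DSS day 1, with the 8 genes in red. Il1rl1, at 58.8%, lies below the main band of genes, and the other 7 genes lie within or near it.

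Il18 behaved unlike the other cytokine genes. It stood at 79.2 RPKM in the control, at 126, 111 and 139 RPKM in DSS on days 1, 3 and 7, and at 105, 125 and 150 RPKM in PhIP/DSS. All 6 treated libraries lay above the control, by between 1.32 (1.18 to 1.48) and 1.90 (1.71 to 2.11) times, and PhIP/DSS day 1, where 5 of the other genes were highest, had the lowest treated value, not told apart from DSS day 3 by counting error (DSS day 3 over it 1.056, interval 0.957 to 1.17). PhIP/DSS day 7 and DSS day 7 did not differ beyond counting error (ratio 1.08, interval 0.992 to 1.18). Il18 was the most abundant of the 8 transcripts in the control, DSS day 1 and PhIP/DSS days 3 and 7, and Il1rn was the most abundant in the other 3 libraries.

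The first question of the design was how the days after DSS differ from the untreated colon. The control lay below all 6 treated libraries for 7 of the 8 genes, as it did for 25.4% of all genes tested, and above all 6 for Il1r1, as for 29.7%. At least 2-fold higher than the control were 5, 6 and 6 of the 8 genes in DSS on days 1, 3 and 7, where 6.44%, 7.86% and 7.91% of all genes were. In PhIP/DSS these were 6, 4 and 5 of the 8, where 12%, 5.17% and 7.57% of all genes were. Il1r1 was the 1 gene at least 2-fold lower in each of the 6 libraries, where 5.88%, 6.15% and 4.96% of all genes were in DSS and 9.53%, 4.05% and 3.65% in PhIP/DSS. All these comparisons share the 1 control library. For Il1a, Il1r2, Il33 and Il1rl1 the direction was partly fixed in advance. With so little in the control, they could be tested only if 2 or more treated libraries reached the 1 RPKM cutoff. Counts that include them are therefore not independent signs of a rise. Il1b, Il1rn and Il18 reached 1 RPKM in the control, so they needed only 1 treated library at the cutoff. The control lay below all 6 treated libraries for each of them. The limit on Il1a, Il1r2, Il33 and Il1rl1 also applies to genes of the lists below with a control level under 1 RPKM.

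In a single edgeR fit of the 7 libraries, with the arms of a day averaged, no gene passed at an adjusted p under 0.05 on day 1, 3 or 7 against the control, 0% of 12061 genes each. Unadjusted p-values under 0.05 numbered 3932, 2291 and 2076 genes on the 3 days. The spread in this fit comes from how the difference between arms varies over days, with 2 residual degrees of freedom, so genes whose arms differed in opposite ways have wide standard errors. Among the 8 genes the smallest adjusted p-values on day 1 were those of Il1r1 (log2 fold change -1.49, SE 0.23, edgeR adjusted p = 0.0710) and Il33 (3.99, SE 0.78, edgeR adjusted p = 0.0712). Il18 followed (0.53, SE 0.17, edgeR adjusted p = 0.118). Il1rl1 had a log2 fold change of 5.64 (SE 2.00) with an edgeR adjusted p of 0.135. For Il1b the log2 fold change was 7.18 with an SE of 3.33 (edgeR adjusted p = 0.209), for Il1a 5.82 with an SE of 2.82 (0.222) and for Il1rn 1.82 with an SE of 0.90 (0.228).

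On days 3 and 7 against the control the values of the 8 genes had the same signs as on day 1. On day 3 the smallest edgeR adjusted p-values were 0.129 for Il1r1 (log2 fold change -1.78, SE 0.23), 0.197 for Il33 (2.76, SE 0.75) and 0.202 for Il18 (0.59, SE 0.17). On day 7 they were 0.118 for Il1r1 (-1.41, SE 0.23), 0.142 for Il18 (0.89, SE 0.17) and 0.242 for Il33 (2.37, SE 0.75). The remaining 5 had edgeR adjusted p-values between 0.321 and 0.571 on day 3 and between 0.344 and 0.525 on day 7.

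The outcome of these tests turned on the method and terms of the fit and on the 2 libraries of day 1. Leaving out either of those libraries leaves under 2 residual degrees of freedom and takes the day 1 difference between the arms out of the spread. The other day 1 library is then shifted by a PhIP term taken from days 3 and 7 only. Calls from such fits, here and below, therefore rest on a spread that lacks day 1. Without the DSS day 1 library edgeR called 7 of the 8 genes on day 1, all but Il18, where 35.5% of all genes were called, and all 8 on days 3 and 7, where 17.8% and 15.7% were. Without the PhIP/DSS day 1 library it called Il1r1, Il33, Il1rl1 and Il18 on day 1 (12.4% of all genes) and all 8 on days 3 and 7 (18.8% and 16.7%). DESeq2, with all libraries, called Il1b, Il1r1, Il33 and Il1rl1 on day 1 (10.4% of all genes), Il1r1 and Il33 on day 3 (3.58%) and Il18 on day 7 (4.00%). Without the PhIP term, edgeR with all libraries called Il1r1 and Il33 on day 1 (10.8% of all genes). On days 3 and 7 that fit called none of the 8, where 0.224% and 0.489% of all genes were called. In each of these fits Il1r1, where called, was lower and the other genes called were higher than in the control.

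**Figure D4:**
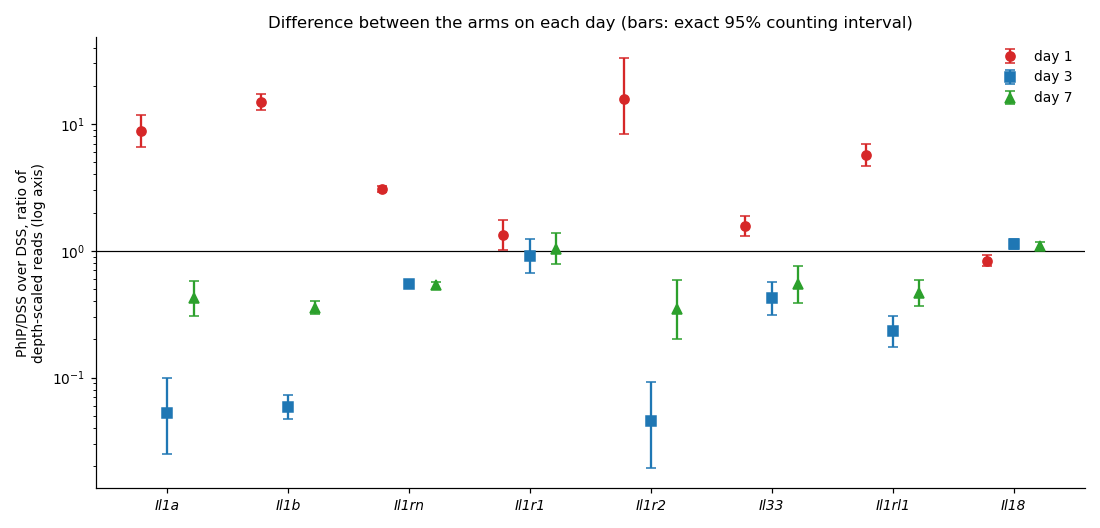
Ratio of depth-scaled reads in PhIP/DSS over DSS on days 1, 3 and 7 (vertical log axis) for the 8 genes, with exact 95% counting intervals and a line at equal reads. For Il1a, Il1b, Il1rn, Il1r2, Il33 and Il1rl1 the day 1 ratio is above 1 and the day 3 and day 7 ratios are below 1.

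The second question was whether PhIP before DSS goes with a different response, and for 6 of the 8 genes the sign of the difference between the arms depended on the day. On day 1 PhIP/DSS was higher for Il1b by 14.9 times (12.9 to 17.3), Il1r2 by 15.6 times (8.28 to 33.3), Il1a by 8.74 times (6.60 to 11.8) and Il1rl1 by 5.67 times (4.69 to 6.90). Il1rn was higher by 3.06 times (2.91 to 3.21) and Il33 by 1.56 times (1.30 to 1.89). At least 2-fold higher were 5 of the 8 genes, where 6.35% of all genes were, and 0 were at least 2-fold lower, where 1.83% were.

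On day 3 DSS was the higher arm for the same 6 genes. The DSS level exceeded that of PhIP/DSS by 21.8 times (10.8 to 51.3) for Il1r2, 18.9 times (10.1 to 40.0) for Il1a and 16.9 times (13.6 to 21.4) for Il1b. It exceeded it by 4.29 times (3.24 to 5.76) for Il1rl1, 2.35 times (1.75 to 3.18) for Il33 and 1.82 times (1.71 to 1.94) for Il1rn. At least 2-fold lower in PhIP/DSS were 5 of the 8, where 4.29% of all genes were. On day 7 the DSS level was again the higher one, by between 1.84 times (1.32 to 2.59) for Il33 and 2.86 times (1.71 to 4.95) for Il1r2, and 4 of the 8 genes were at least 2-fold lower in PhIP/DSS, where 2.46% of all genes were.

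Il1r1 and Il18 differed by less than 2-fold between the arms on each day. The PhIP/DSS over DSS ratio of Il1r1 was 1.32 (1.005 to 1.75), 0.906 (0.663 to 1.24) and 1.04 (0.788 to 1.37) on days 1, 3 and 7. That of Il18 was 0.834 (0.758 to 0.918), 1.13 (1.02 to 1.24) and 1.08 (0.992 to 1.18). Averaged over the days, edgeR called no gene between the arms (0% of 12061 genes, with 442 at an unadjusted p under 0.05), and each of the 8 genes had an edgeR adjusted p of 0.998. The averaged log2 fold changes ran from -0.96 (SE 1.91) for Il1r2 to 0.09 (SE 0.16) for Il1r1. Without the DSS day 1 library edgeR called Il1b, Il1rn, Il1r2, Il33 and Il1rl1 lower in PhIP/DSS (2.34% of all genes), and without the PhIP/DSS day 1 library the same 5 (2.69%). DESeq2 called 18 genes with all libraries and none of these 8, of which 5 had no DESeq2 adjusted p.

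The third question was the course from day 1 to day 7. In the DSS arm Il1b was 7.20 times higher on day 3 than on day 1 (6.21 to 8.37), Il1r2 18.1 times (9.62 to 38.4), Il1a 3.56 times (2.63 to 4.89) and Il1rl1 2.12 times (1.71 to 2.64). These were the 4 of 8 genes at least 2-fold higher, where 4.43% of all genes were. In the PhIP/DSS arm the day 1 level exceeded that of day 3 by 46.4 times for Il1a (25.0 to 97.4), 35.1 times for Il1b (28.3 to 44.1) and 18.9 times for Il1r2 (9.34 to 44.5). With Il1rl1, Il33 and Il1rn, these made 6 of 8 genes at least 2-fold lower on day 3, where 7.29% of all genes were.

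From day 3 to day 7 the ratio between the arms moved closer to 1 for Il1a, Il1b, Il1r2, Il33 and Il1rl1, but not for Il1rn (0.550, then 0.532). The intervals of both days overlapped for Il33 (0.314 to 0.572, then 0.386 to 0.759) and for Il1rn (0.517 to 0.585, then 0.502 to 0.565). In PhIP/DSS, Il1a was higher by 6.12 times (3.11 to 13.4), Il1b by 4.81 times (3.79 to 6.16) and Il1r2 by 2.63 times (1.12 to 6.87). These were the 3 of 8 genes at least 2-fold higher, where 4.46% of all genes were. In DSS, Il1r2 alone of the 8 was at least 2-fold lower on day 7 than on day 3 (ratio 0.345, interval 0.253 to 0.465), where 1.29% of all genes were.

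Between days 7 and 1 with the arms averaged, edgeR called no gene (0% of 12061 genes, with 3172 at an unadjusted p under 0.05). The smallest adjusted p among the 8 was that of Il33 (log2 fold change -1.62, SE 0.51, edgeR adjusted p = 0.142), then that of Il18 (0.36, SE 0.14, edgeR adjusted p = 0.187). Without the DSS day 1 library edgeR called all of the 8 but Il1r1 (24.8% of all genes), with Il18 higher and 6 lower on day 7. Without the PhIP/DSS day 1 library it called Il1b and Il1rn (6.52%), both higher on day 7, the opposite direction.

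Transcripts of immune and stromal cells also differed between the libraries. PhIP/DSS day 1 and DSS day 3 had the highest neutrophil, macrophage and fibroblast sums, and the control, where Il1r1 was highest, had the lowest. The 14 neutrophil markers, of which 13 were listed, summed to 3.09 RPKM in the control, to 38.8, 1219 and 503 RPKM in DSS on days 1, 3 and 7, and to 867, 32.9 and 77.5 RPKM in PhIP/DSS. Retnlg, Mmp8, Clec4e, Camp, Ngp and Stfa2l1 were at 0 reads in the control and Ly6g was not among the genes listed. The control had 0.333 RPKM of S100a8, an abundant neutrophil calcium-binding protein gene, against 416 in DSS day 3 and 250.1 in PhIP/DSS day 1, and Csf3r, the G-CSF receptor gene, at 0.231, 13.2 and 11.1 RPKM. Of the 12 neutrophil markers tested, all were at least 2-fold higher in PhIP/DSS than in DSS on day 1, where 6.35% of all genes were, and all at least 2-fold lower on days 3 and 7, where 4.29% and 2.46% were. DSS day 3 had the highest neutrophil sum, and of the 8 genes Il1r2 was the one highest in that library. Counting error did not tell its level there from that in PhIP/DSS day 1 (ratio 1.16, interval 0.927 to 1.44). The part of neutrophils in the levels of the 8 genes was not tested.

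The 12 macrophage and monocyte markers summed to 49.9 RPKM in the control, to 106, 293 and 248 RPKM in DSS, and to 507, 99.4 and 183 RPKM in PhIP/DSS. Their order of libraries was that of Il1b, as was that of the fibroblast sums given next. Cd68, a lysosomal macrophage protein gene, was at 1.94 RPKM in the control and 51.9 in PhIP/DSS day 1, and Csf1r, the macrophage growth factor receptor gene, at 0.909 and 15.8 RPKM. All 11 macrophage markers tested had the control below every treated library, as had 25.4% of all genes.

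The 10 fibroblast markers summed to 20.1 RPKM in the control, to 52.3, 137 and 135 RPKM in DSS and to 248, 47.6 and 93.2 RPKM in PhIP/DSS. Col1a1, a collagen gene, was at 1.16 RPKM in the control and between 7.71 and 29.6 in the treated libraries. For 8 of these 10 markers the control lay below every treated library, as it did for 25.4% of all genes tested. Pdgfrb (log2 fold change -0.16) and Thy1 (-0.57) went the other way in the edgeR fit of day 1 against the control. The 7 fat tissue markers summed to 129 RPKM in PhIP/DSS day 1, to 16.8 in the control and to between 2.47 and 6.72 in the other 5 libraries. The adipocyte gene Adipoq was at 6.94 RPKM in PhIP/DSS day 1 and at 0 reads in DSS days 3 and 7 and PhIP/DSS day 7. PhIP/DSS day 1, the library that set the highest level of 5 of the 8 genes, therefore also had the highest macrophage, fibroblast and fat sums. The part of these cells in the levels of the 8 genes was not tested.

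Mast cells are among the cells known to carry ST2. The 10 mast cell markers summed to 35.9 RPKM in the control, to 51.1, 24.1 and 24.0 RPKM in DSS and to 41.2, 48.6 and 51.6 RPKM in PhIP/DSS. Tpsab1 and Fcer1a were at 0 reads in the control. Of the 6 mast cell markers tested, 4, 0 and 0 were at least 2-fold higher than the control in DSS on days 1, 3 and 7. At least 2-fold lower were 1, 2 and 2. In PhIP/DSS 3 were higher and 1 was lower on each day. The shares of all genes higher were 6.44%, 7.86% and 7.91% in DSS and 12%, 5.17% and 7.57% in PhIP/DSS. The shares lower were 5.88%, 6.15% and 4.96% in DSS and 9.53%, 4.05% and 3.65% in PhIP/DSS. The part of mast cells in the Il1rl1 level was not tested. The T cell and innate lymphoid cell markers summed to between 3.89 and 10.2 RPKM, the endothelial ones to between 3.42 and 6.82, the smooth muscle ones to between 11.1 and 19.6 and those of squamous epithelium to between 2.45 and 19.8. No gene of any marker list passed in edgeR, as no gene tested did. The B and plasma cell markers were highest in PhIP/DSS day 7, at 91.9 RPKM, and between 17.5 and 45.5 in the other libraries.

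**Figure D5:**
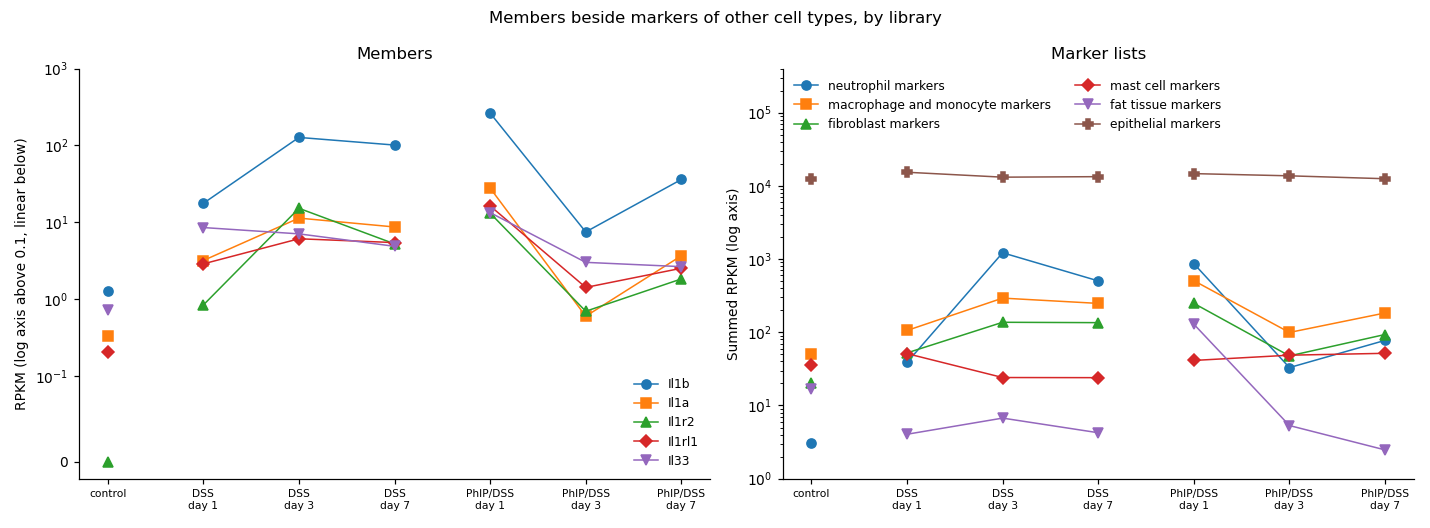
Left, levels of 5 of the genes in RPKM, on an axis that is logarithmic above 0.1 and linear below. Right, summed RPKM of 6 marker lists on a log axis, with lines joining the days of an arm. The neutrophil sum is highest in DSS day 3 at 1219 RPKM, the macrophage and fibroblast sums in PhIP/DSS day 1, and the epithelial sum stays between 12398 and 15339 RPKM.

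Other genes of the family were mostly low. Il36g, an epithelial cytokine gene of the IL-36 branch, was at 3.41 RPKM in the control, at 3.06, 8.02 and 6.84 RPKM in DSS and at 10.7, 2.67 and 5.64 RPKM in PhIP/DSS. Its arms differed in the same way as those of Il1b, by 3.51 times in favour of PhIP/DSS on day 1 (2.49 to 5.03) and by 3.01 times in favour of DSS on day 3 (2.06 to 4.48), with no difference beyond counting error on day 7 (ratio 0.824, interval 0.602 to 1.13). Il1rl2, the IL-36 receptor gene, was at 1.87 RPKM in the control and between 0.294 and 0.974 in the treated libraries.

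The accessory chain and the inhibitors had patterns of their own. Il1rap, the chain shared by the IL-1 and IL-33 receptors, was at 4.16 RPKM in the control, at 2.40, 2.59 and 2.81 RPKM in DSS and at 3.25, 1.82 and 2.42 RPKM in PhIP/DSS. The control lay above every treated library, as it did for Il1r1 and for 29.7% of all genes tested. In PhIP/DSS day 1 the ratio of Il1rap to the control was 0.781 (0.611 to 0.998). Il18bp, which encodes the secreted binding protein that neutralizes IL-18, was at 3.49 RPKM in the control, at 6.28, 5.77 and 6.39 RPKM in DSS and at 14.2, 7.51 and 15.9 RPKM in PhIP/DSS. It was higher in PhIP/DSS than in DSS by 2.26 times (1.72 to 2.99) on day 1 and 2.49 times (1.90 to 3.30) on day 7, and on day 3 the ratio of 1.30 (0.945 to 1.80) was within counting error of equal levels. It had an averaged log2 fold change of 0.95 (SE 0.23, edgeR adjusted p = 0.998). Sigirr, an inhibitory receptor of the family, stayed between 11.8 and 15.02 RPKM. Il18r1 and Il18rap, the IL-18 receptor chains, named after their values were seen, were under 1 RPKM in every library.

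Of the transcripts that carry the signal, none of the 22 in the signalling list passed in any edgeR comparison, as no gene tested did. The control lay below all treated libraries for 6 of the 22 and above all for 5, near the 25.4% and 29.7% of all genes tested. Myd88, the adaptor, was at 22.0 RPKM in the control and between 23.4 and 32.7 in the treated libraries. Irak1, a kinase downstream of it, was at 25.1 and between 22.6 and 29.4 RPKM, and Irak2 was at 19.3 and between 12.6 and 16.3 RPKM. Irak3, the inhibitory member of that kinase family, was at 2.11 RPKM in the control and at 5.87 in DSS day 3 and 7.02 in PhIP/DSS day 1.

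The genes that mature these cytokines were present in the control. Casp1, which encodes the protease of IL-1β and IL-18, was at 81.5 RPKM there and between 120 and 141 in the treated libraries. Pycard, the inflammasome adaptor, was at 49.6 and between 59.4 and 70.4 RPKM, and Casp8 was at 31.4 and between 53.5 and 74.1 RPKM. Casp4, the caspase of the non-canonical inflammasome, was at 7.74 RPKM in the control, with treated libraries on both sides from 3.84 to 12.6. Of the 11 tested genes of this list the control lay below all treated libraries for 8, as for 25.4% of all genes. In edgeR 0 passed, as no gene tested did.

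Genes known to be induced by IL-1 in other settings were higher in the treated libraries without passing in edgeR, where no gene tested passed. Of 14 tested, 11, 13 and 13 were at least 2-fold higher than the control in DSS on days 1, 3 and 7, and 14, 11 and 13 in PhIP/DSS. Some of these, such as Cxcl1, Cxcl2 and Cxcl5, were so low in the control that only treated libraries could bring them into the test. The shares of all genes were 6.44%, 7.86% and 7.91% in DSS and 12%, 5.17% and 7.57% in PhIP/DSS. Cxcl2, a neutrophil chemokine gene, was at 0.120 RPKM in the control from 1 read, at 4.02, 27.2 and 23.0 RPKM in DSS and at 78.3, 3.29 and 4.51 RPKM in PhIP/DSS. Cxcl1 was at 0.271 RPKM in the control and at 10.3 in PhIP/DSS day 1, and Cxcl5 at 0.867 and 21.5 RPKM. Nfkbiz, an NF-κB cofactor gene, had another order, at 12.1 RPKM in the control, 25.5, 41.0 and 44.8 in DSS and 37.0, 56.8 and 47.5 in PhIP/DSS, where it was highest on day 3, the day on which Il1a and Il1b were lowest in that arm.

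Of the genes linked to IL-33 and IL-18 responses, 2 were tested and neither passed in edgeR, as no gene tested did. Areg, a growth factor gene of repair, was at 15.6 RPKM in the control and between 37.0 and 65.4 in the treated libraries, highest in PhIP/DSS day 1. Gata3, a type 2 lymphocyte factor gene, was at 0.120 RPKM in the control and between 0.575 and 2.08 in the treated libraries, lowest among them in PhIP/DSS day 1. Ifng, which IL-18 induces in lymphocytes, reached 1.36 RPKM from 14 reads in PhIP/DSS day 1 and had 0 reads in the control. Il4, Il9 and Il13 were not among the genes listed.

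The genes most like each member were found by Pearson's r of log2(RPKM + 1) over the 7 libraries, among the 12061 genes tested, as a description that rests on shared libraries. Il1a was most like Hp (haptoglobin, an acute phase protein; r = 0.998), Fcer1g and Zfp322a. Il1b was most like Tgfbi (r = 0.996), Sdc3 and Fcgr2b, an inhibitory Fc receptor gene of myeloid and B cells. Il1rn was most like Timp1, a metalloproteinase inhibitor gene (r = 0.992), Snai1 and Ifi211. Il1r2 was most like Picalm (r = 0.995), Siglece, a myeloid lectin gene, and Slfn1. Il33 was most like the chemokine gene Ccl9 (r = 0.995), Sccpdh and Eif4ebp1, and Il1rl1 most like Commd3 (r = 0.993), Atp6v0b and Zfp322a. Il1r1 was most like the amino acid transporter gene Slc7a8 (r = 0.978), A430033K04Rik and Abi3, and Il18 most like Setd3 (r = 0.976), Gm14137 and Adgrf1.

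Likeness did not mean a like size of difference. Hp ran from 0.287 RPKM in the control to 185 in PhIP/DSS day 1, whereas Commd3 and Picalm ran only from 36.6 to 48.8 and from 79.1 to 102 RPKM. Among the 8 genes, Il1a, Il1b, Il1rn, Il1r2 and Il1rl1 had r between 0.875 and 0.979 with each other. Il33 had r between 0.731 and 0.897 with those 5. Il18 had r between 0.146 and 0.394 with the 6 others that were higher in the treated libraries, and r of -0.76 with Il1r1.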

How the data were processed

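Each library's table, per the file headers, lists for each gene a count of unique reads, the RPKM and the percent of the gene covered by reads. The counts deposited are whole numbers, the deposited RPKM values are those reads scaled by gene length and library total, and the deposited percent values are coverage. Per the submitters' processing notes, the genome build was mm10 and FastQC was used. Aligner, counter and strandedness: not given in the sources used here. A gene missing from a table was entered as 0 reads. Symbols came from a RefSeq gene table (GRCm38.p6), which named 17983 of 18036 genes.

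The 7 libraries were fitted together with edgeR 4.0.16 in R 4.3.3 (quasi-likelihood test, TMM, a level for the control and each day plus a PhIP term, Benjamini-Hochberg adjustment over 12061 genes). The fit was run on simulated counts for PhIP/DSS against DSS only, with less spread than these data and the same arm difference on every day. That run did not cover arm differences that change with the day, nor the other comparisons. P-values measure the spread between these pooled libraries only, with the single control taken to vary as the treated libraries do. Library ratios are depth-scaled reads with an exact 95% conditional binomial interval, with a floor of 3 reads for a count of 0. Alternatives were DESeq2 1.42.0, limma 3.58.1 on log2(RPKM + 1) and log2(RPKM + 0.1), no TMM, no filter, fewer terms and leaving out each library. The genes and lists were chosen with earlier results of these data known. Named were the 8 genes, other family genes with at least 1 RPKM in a library, from the first 4 such genes of each other list (several marker lists are given by their sums only), and the 3 genes most like each of the 8.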

Additional observations from a re-analysis of the deposited data

Results flagged for a closer look

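For 6 of the 8 genes the PhIP/DSS over DSS ratio was above 1 on day 1 and below 1 on days 3 and 7. The difference between the arms thus had opposite signs in the libraries of different days. Each arm and day had 1 library, so day and library cannot be told apart and the difference between days was not tested. The ratios on days 1, 3 and 7 were 8.74, 0.0529 and 0.422 for Il1a, and 14.9, 0.0590 and 0.357 for Il1b. They were 3.06, 0.550 and 0.532 for Il1rn, and 15.6, 0.0458 and 0.350 for Il1r2. They were 1.56, 0.426 and 0.544 for Il33, and 5.67, 0.233 and 0.463 for Il1rl1. In the PhIP/DSS day 1 library the fat tissue markers summed to 129 RPKM against 4.05 in DSS day 1, and the macrophage markers to 507 against 106, and their part in these ratios was not tested.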

How the results depend on the processing

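The signs of the 8 genes in the 3 comparisons with the control held under all alternatives run, and the 66 library ratios tried with TMM scaling moved by less than counting error. Counts of called genes, 0 in all 5 comparisons with edgeR, were 1258, 432 and 482 for days 1, 3 and 7 against the control, 703 for day 7 against day 1 and 18 for PhIP/DSS against DSS with DESeq2. Without a filter they were 6, 3 and 29 for the days against the control. Without the PhIP term they were 1305, 27 and 59, and 57 for day 7 against day 1. With limma on log2(RPKM + 0.1) there were 3 for day 7 against day 1. Leaving out 1 library gave 0 to 4280, 0 to 2271 and 0 to 2010 for the days against the control, 0 to 2986 for day 7 against day 1 and 0 to 324 for PhIP/DSS against DSS. Each count above 0 came from leaving out DSS day 1 or PhIP/DSS day 1, and the cause was not tested.

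Signs turned in the other 2 comparisons, where none of the 8 genes passed with all libraries. Leaving out 1 library at a time, the log2 fold change of day 7 against day 1 ran from -3.51 to 2.02 for Il1a, -3.37 to 3.14 for Il1b, -1.77 to 0.74 for Il1rn, -0.14 to 0.31 for Il1r1, -3.68 to 3.21 for Il1r2 and -2.92 to 1.18 for Il1rl1. That of PhIP/DSS against DSS ran from -2.39 to 0.95 for Il1a, -2.62 to 1.16 for Il1b, -0.91 to 0.37 for Il1rn, -0.062 to 0.22 for Il1r1, -2.89 to 1.11 for Il1r2, -1.60 to 0.71 for Il1rl1 and -0.092 to 0.12 for Il18. Without day terms PhIP/DSS against DSS was 0.43 for Il1a, 0.28 for Il1b, 0.19 for Il1rn, 0.46 for Il1rl1 and 0.00024 for Il18, and Il18 was 0.0074 under both limma settings and 0.0084 without TMM. Of 496 alternative values of single genes, 33 turned sign, 69 kept it and passed the threshold that the value with all libraries had missed, and 394 did neither. Among the 33, Il1b and Il1rn, on day 7 against day 1 without PhIP/DSS day 1, also passed. No paired analysis was possible because each condition had 1 library, beyond the day terms of the fit, which compare the arms within a day. Depth limits Il1a, Il1r2, Il33 and Il1rl1 in the control, where they had 0 to 14 reads.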
